A study of Mus musculus with 4 samples.

Results

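The splanchnic mesenchyme of the E10.5 mouse library was taken as the cells that carried at least 2 of the transcripts of Foxf1, Hand1 and Barx1. The cells were chosen by these values: a member had 1 UMI (unique molecular identifier, a tag that marks 1 captured RNA molecule) or more of at least 2 of the 3 genes, and no UMI of Pax1, Pax3, Upk3b or Epcam, which mark sclerotome, dermomyotome, coelomic epithelium and endodermal or germ cells. Of 4473 barcodes in the library, 3837 had between 1000 and 4000 detected genes and under 10% mitochondrial UMIs. Among these, 429 cells were members, a share of 11.2% (exact binomial 95% interval 10.2 to 12.2%). Across the 4 libraries of the series, 10987 cells passed the filters, and every member came from E10.5.

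The study derived testicular somatic cells from mouse embryonic stem cells and set them beside embryonic gonads. It is represented here by 4 droplet single-cell RNA libraries, 1 for each condition. The E10.5, E11.5 and E12.5 XY libraries came from in vivo gonads of the ICR strain (3′ v2 kit). The D6 XY library held gonadal somatic cells derived from embryonic stem cells labelled C57BL/6J (N271S9C) with the transgenes Nr5a1-hCD27a and Sox9-2A-CGFP, which the study's methods call Nr5a1-hCD271 and trace to a cross of 129X1/SvJ with C57BL/6J, after 6 days of differentiation and magnetic enrichment of Nr5a1-reporter cells (3′ v3 kit). Per the study's methods, the E10.5 dissection took in the dorsal mesenchyme around the gonad, and the mesonephros was removed from the later gonads. How many embryos each library pooled is not given in the sources used here. With 1 library for each condition there is no replicate check and no test between conditions. Intervals below cover counting error only, not the spread between embryos.

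Splanchnic mesenchyme is the inner layer of the lateral plate mesoderm. It wraps the gut tube and its mesentery, receives Hedgehog protein from the gut epithelium, and gives rise to the smooth muscle, connective tissue and interstitial cells of the digestive tract. FOXF1 is a forkhead factor required for this layer and a target of Hedgehog signalling, HAND1 is a basic helix-loop-helix factor of lateral and extraembryonic mesoderm, and BARX1 is a homeodomain factor of the stomach mesenchyme. In mm10 coordinates, Foxf1 lies on the plus strand at chr8:121084386-121088144, Hand1 on the minus strand at chr11:57828705-57832818, and Barx1 on the plus strand at chr13:48662998-48666507.

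Foxf1 was the gene that nearly all members shared, and Hand1 and Barx1 divided them. Of the 429 members, 277 carried Foxf1 with Hand1, 137 carried Foxf1 with Barx1, 11 carried all 3 genes and 4 carried Hand1 with Barx1. There were thus 152 Barx1-positive and 277 Barx1-negative members, and by the rule every Barx1-negative member carried both Foxf1 and Hand1. The median member that carried Barx1 had 6 UMIs of it, against 3 UMIs for Hand1 and 2 UMIs for Foxf1 in the members that carried those genes. Among all retained E10.5 cells, whatever their membership, 6.98% of the 258 cells with Barx1 also had a UMI of Hand1, against 15.6% of cells without Barx1. Foxf1 went the other way and was found in 67.8% of the cells with Barx1 and in 13.5% of those without. These shares belong to the genes that chose the cells and are given as a description.

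Members lay close to the edge of the rule in many cases. In 189 members (44.1%) the second gene rested on exactly 1 UMI, and in 32 of them both genes had 1 UMI each. Just outside the rule were 348 cells with a UMI of 1 of the 3 genes and none of the barred genes, of which 153 had that gene at exactly 1 UMI. A further 85 cells carried 2 or more of the genes and were kept out by a barred transcript, with a UMI of Upk3b in 50 cells, of Epcam in 35, of Pax1 in 1 and of Pax3 in 1, some with more than 1 of these. Depth was similar across the sets, with a median of 7733 UMIs in members, 8316 in the 2871 cells with none of the 3 genes, 8262.5 in Barx1-positive and 7526 in Barx1-negative members. Free RNA in the droplets was gauged in cells with several markers of another type or, for blood, with over 50% of UMIs from globin genes. None of 260 dermomyotome-marked cells carried 2 of the 3 genes, which allows a share of up to 1.15%, at a median of 10511.5 UMIs. Nor did any of 100 neural crest or neuronal, 99 sclerotome, 76 endodermal, 69 endothelial and 31 erythroid cells. These smaller sets allow, in the same order, shares of up to 3%, 3.03%, 3.95%, 4.35% and 9.68%. Foxf1 was itself found in 13.1% of the sclerotome-marked and 5.80% of the endothelium-marked cells, so this gene taken alone did not mark the group.

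Members were set beside markers of other cell types that the dissection could hold. The rule is not independent of these markers. Barring Epcam kept out 35 cells with 2 or more of the 3 genes, so low endodermal levels were partly set by it. Cells with 2 or more of the genes and a UMI of Pax1 or of Pax3 numbered 1 each. Members had 0 UMIs of Pax9 and Uncx (sclerotome), Myf5 and Myod1 (muscle), Cdh5 and Tie1 (endothelium), Sox10 (neural crest), and Foxa1, Sox17 and Cdh1 (endoderm), where 0 UMIs in the summed members allows up to 0.863 UMIs per 1000000 UMIs (CPM, the unit of all levels below). They also had 0 UMIs of Nr5a1, the defining factor of the gonad primordium. The 10 neural crest and neuronal genes summed to 17.8 CPM in members and 207 CPM in cells with none of the 3 genes, and their most abundant member there was Tubb3 at 6.62 CPM. The 8 erythroid genes summed to 104 CPM against 18853 CPM, with Hbb-y the most abundant at 63.9 CPM and Alas2 at 0. Other genes of these lists were not at 0. Egfl7, an endothelial gene, was at 34.2 CPM in members and 42.4 CPM in the reference cells, and a UMI of Hbb-y was found in 24.7% and 27.4% of the cells. The 12 coelomic epithelium genes, 1 of which (Upk3b) the rule barred, summed to 472 CPM in members and 315 CPM in the reference cells, with Krt18 the most abundant at 234 CPM, Wt1 found in 12.8% of members, and Upk1b and Msln at 0. In the lists of sclerotome, dermomyotome and muscle, and gonad primordium, the most abundant genes in members were Sox9 at 6.91 CPM, Meox1 at 13.8 CPM and Wt1 at 25.0 CPM. Each list thus held genes at 0 and genes above it, and the part of such cells in the results was not tested. The library is labelled XY, although the submitters' protocol text speaks of female tissue. At least 1 of 4 Y-linked transcripts was found in 243 members (56.6%) and Xist in 1 member.

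Clusters formed from other genes held most members in 2 clusters, together with other cells. The 3837 cells were clustered without the 7 genes of the rule into 18 clusters, 2 of which held 675 cells, among them 380 members (88.6%), 183 cells with exactly 1 of the 3 genes and 41 cells (1.43%) with none. Cluster 4 (376 cells) was led by Mab21l2, Nkx2-3, Gpr50, Saa1 and Saa2 and held 230 members, of which 224 were Barx1-negative. Cluster 8 (299 cells) was led by Isl1, Hoxa5, Ifitm1, Hoxb6 and Hoxb4 and held 150 members, of which 129 were Barx1-positive. Most Barx1-positive and Barx1-negative members thus fell in different clusters although Barx1 was not among the features. The 183 were 40.5% of the cells with exactly 1 gene. Cluster 9, led by Tagln, Acta2 and Myl9, held another 24 members, all Barx1-negative, and cluster 3, whose median depth was 3539 UMIs, held 17. These clusters describe the library and are no test of the group.

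**Figure D1:**
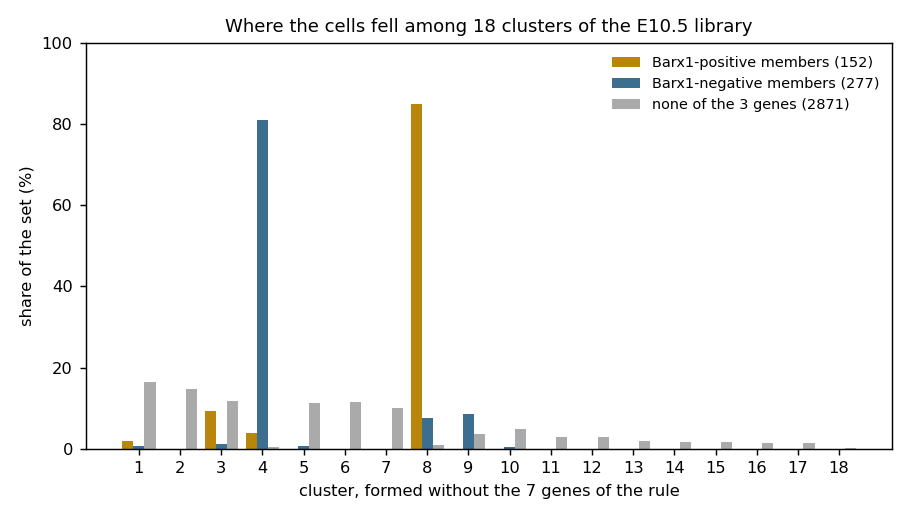
Share of Barx1-positive members, Barx1-negative members and cells with none of the 3 genes (vertical axis, % of each set) in each of the 18 clusters of the E10.5 library (horizontal axis), formed without the 7 genes of the rule. Barx1-negative members sit mostly in cluster 4 (80.9%) and Barx1-positive members in cluster 8 (84.9%), where cells with none of the 3 genes are few.

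Among genes at 50 CPM or more in members, the highest ratios to the cells with none of the 3 genes belonged to the melatonin-receptor relative Gpr50, the homeobox gene Nkx2-3 and Mab21l2. Nkx2-3, a factor of gut and spleen mesenchyme, was at 135 CPM (123 to 148) in members and 2.36 CPM (1.79 to 3.05) in cells with none, a ratio of 57.4 (43.6 to 76.8). Gpr50 was at 81.7 CPM in members against 0.731 CPM, a ratio of 112 (69.4 to 191). Mab21l2, whose loss affects eye and body wall formation, was at 198 CPM against 6.46 CPM, a ratio of 30.6 (25.7 to 36.6). With every cell thinned to 4000 UMIs and chosen anew, the ratios were 30.8 for Gpr50, 22.1 for Nkx2-3 and 17.2 for Mab21l2. Among the alternatives that gave a ratio, the lowest for Gpr50 was 8.55, with a pseudocount of 10 CPM added to both levels. The lowest was 4.93 for Nkx2-3 and 5.40 for Mab21l2, in the 11 cells with all 3 genes of the rule. Gpr50 was found in none of the 15 Barx1-positive members with Hand1, which include these 11 cells, so it had no ratio there. Among members, Gpr50, Nkx2-3 and Mab21l2 were found mainly in the Barx1-negative cells. Of the 10512 genes that averaged 3 CPM or more over all retained cells, 272 (2.59%) were at least 2-fold higher in members and 602 (5.73%) at least 2-fold lower. With no expression filter, higher genes outnumbered lower ones. The median log2 ratio was 0.04 over the 10439 of the 10512 genes that had one. The reference cells are a mixture of sclerotome, dermomyotome, epithelium, neurons, blood and other mesenchyme. The part of this mixture in the lower genes was not tested.

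**Figure D2:**
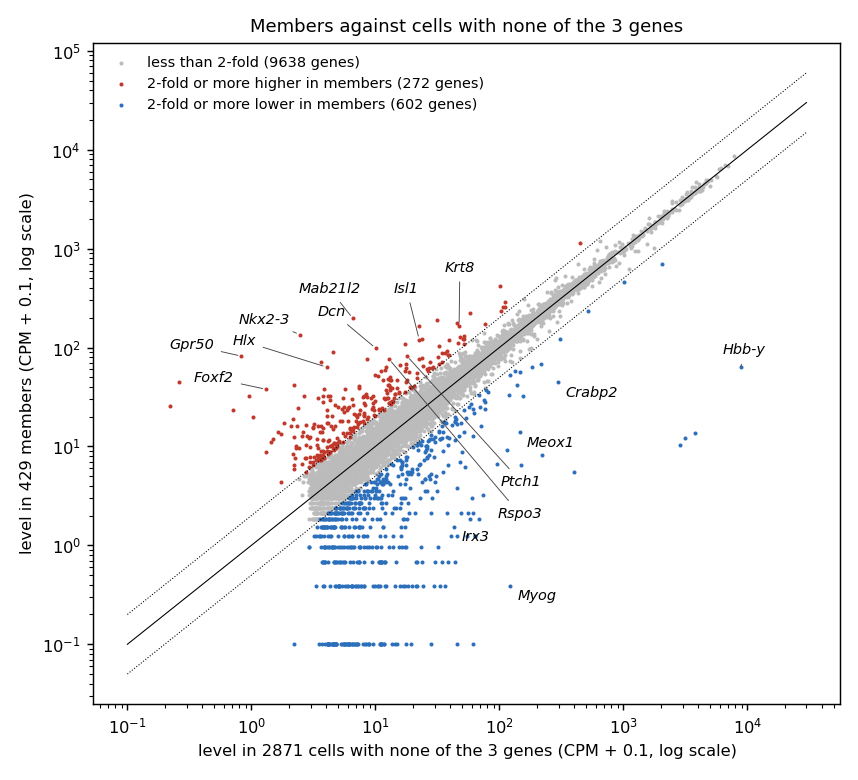
Level of each of 10512 genes in the 429 members (vertical axis) against the 2871 cells with none of the 3 genes (horizontal axis), in CPM + 0.1 on log scales, with the lines of equality and of 2-fold difference. Red points (272 genes) lie at least 2-fold higher in members, with Nkx2-3, Gpr50 and Mab21l2 far above the line, and blue points (602 genes) at least 2-fold lower, with Myog and the globin gene Hbb-y far below it.

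Of 18 transcription factor genes of visceral mesoderm that passed the filter, 8 were at least 2-fold higher in members, 3 lower (Tbx3, Zeb2 and Irx3) and 7 neither, with a median log2 ratio of 0.34, where 2.59% of all genes were higher and 5.73% lower. Foxf2, the paralogue of Foxf1, was at 37.7 CPM in members and 1.22 CPM in the other cells, a ratio of 30.9 (20.7 to 47.7), which was between 4.25 and 66.1 over the alternatives run. The ratio was 5.35 (4.70 to 6.09) for Isl1, a LIM-homeodomain factor of second heart field and foregut mesoderm. It was 1.73 in cells without a UMI of Top2a, Mki67 or Cenpf and 14.5 in the 11 cells with all 3 genes. For the cardiac and pyloric factor Nkx2-5 the ratio was 21.2 (13.1 to 35.7), or 2.73 with a pseudocount of 10 CPM and 112 in those 11 cells. Outside this list, Hlx, a homeobox gene of gut mesenchyme, was at 63.3 CPM against 3.94 CPM. Tcf21, a factor of visceral and gonadal mesenchyme, had a ratio of 3.15 (2.60 to 3.79), and Hand2 one of 2.91 (2.37 to 3.56). Gata6 was at 29.4 CPM in members and 32.4 CPM in the other cells and lay within 2-fold. Irx3 was lower, at 1.44 CPM against 43.1 CPM.

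Of the genes that respond to Hedgehog, Ptch1 was higher in members, Gli1 and Hhip were higher by ratios that depended on the processing, and no ligand had more than 1 UMI. Ptch1, the Hedgehog receptor whose transcription the pathway itself raises, was at 82.0 CPM (72.8 to 92.1) in members and 17.9 CPM in cells with none of the 3 genes. Its ratio was 4.59 (3.94 to 5.34). Hhip, a decoy receptor and a further target, was at 13.8 CPM against 3.45 CPM, and the transcription factor Gli1 had a ratio of 3.11 (2.09 to 4.56). The signal transducer Smo was at 62.2 CPM against 56.4 CPM, and Gli3 at 18.7 CPM against 20.9 CPM, so both lay within 2-fold. Gas1, a Hedgehog co-receptor, was 3.18-fold lower (2.79 to 3.64). Shh and Dhh had 0 UMIs in members and Ihh had 1 UMI. Of 9 pathway genes that passed the filter, 3 were at least 2-fold higher and 1 lower, where 2.59% of all genes were higher and 5.73% lower. Sclerotome also receives Hedgehog, and the 231 cells of the sclerotome gate had 41.0 CPM of Ptch1, 14.4 CPM of Gli1 and 14.4 CPM of Hhip. Members were above this gate for Ptch1 but not for Gli1, found in 8.16% of members and 11.7% of the gate, or Hhip, found in 8.39% and 9.52%. In cells without a UMI of Top2a, Mki67 or Cenpf, the Hhip ratio of members to cells with none of the 3 genes was 1.26, within 2-fold. With a pseudocount of 10 CPM the ratio was 1.57 for Gli1 and 1.77 for Hhip, so both came within 2-fold.

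Secreted signals that act on gut epithelium, enteric neurons and blood vessels were next. Rspo3, an enhancer of Wnt signalling, was at 76.3 CPM in members and 12.8 CPM in the reference cells, a ratio of 5.96 (5.04 to 7.04). In the 11 cells with all 3 genes, its direction turned, with a ratio of 0.909. Dkk2 had a ratio of 5.11 (3.70 to 7.02) and Wnt5a, a noncanonical ligand needed for gut elongation, one of 2.55 (2.02 to 3.19). Wnt2, by contrast, was at 5.47 CPM in members and 34.9 CPM in the other cells, and the Wnt target Axin2 was 2.55-fold lower. In all, 3 of 15 Wnt pathway genes were at least 2-fold higher and 6 at least 2-fold lower, where 2.59% of all genes were higher and 5.73% lower, shares that also stand behind the niche and BMP counts given next. Gdnf, the ligand that draws enteric neural crest into the gut, was at 12.4 CPM against 1.10 CPM, a ratio of 11.3 (6.81 to 19.0), although its level over all cells was too low for the filter. Edn3, which keeps enteric precursors from differentiating early, had a ratio of 5.35 (4.25 to 6.72). Edn3 was the 1 of 10 niche genes that was at least 2-fold higher, and Sema3a the 1 that was lower. Of 15 FGF and retinoic acid genes, 3 were at least 2-fold higher (Fgf9, Fgf10 and Etv4), 3 lower (Crabp1, Crabp2 and Dhrs3) and 9 neither, with a median log2 ratio of -0.10, read against the same shares. Of the fibroblast growth factors, Fgf9 had a ratio of 4.53 (3.42 to 5.97) and Fgf10 was at 16.1 CPM against 4.59 CPM. Of 16 BMP pathway genes none was at least 2-fold higher and 4 were lower (Id4, Msx2, Bmper and Grem1), and Bmp4 itself was at 81.7 CPM against 56.3 CPM. The retinoic acid binding protein genes Crabp1 and Crabp2 were both lower in members, Crabp2 at 44.3 CPM against 299 CPM.

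Matrix genes were more often at least 2-fold higher than lower. Of 18 extracellular matrix genes, 8 were at least 2-fold higher in members and 1 lower, with a median log2 ratio of 0.57, where 2.59% of all genes were higher and 5.73% lower. Decorin (Dcn) was at 98.4 CPM against 9.95 CPM, a ratio of 9.89 (8.37 to 11.7). Lumican (Lum), another small proteoglycan, had a ratio of 6.36 (5.52 to 7.32), and Postn, a matrix protein of fibrous mesenchyme, one of 4.22 (3.57 to 4.98). Lum did not mark members against the sclerotome gate, where 38.1% of cells had a UMI of it, a larger share than in members. Vcan was found in 54.5% of that gate and 35.4% of members, and Col3a1 in 54.1% and 58.3%. Dcn and Postn went the other way, being found in 9.09% and 0.866% of the gate and in larger shares of members. Col2a1, the cartilage collagen, was the gene at least 2-fold lower, at 7.77 CPM against 29.7 CPM. Of 10 smooth muscle genes, read against the same shares, none was at least 2-fold higher and 1 was lower (Tpm2). For so few genes, none being higher is near the share over all genes. Acta2 was at 90.6 CPM against 96.6 CPM, and Myh11, a marker of mature smooth muscle, had 0 UMIs. All 16 cell cycle genes lay within 2-fold, and 76.7% of members and 71.6% of the reference cells had a UMI of Top2a, Mki67 or Cenpf. Of the simple-epithelium keratins, Krt8 and Krt18 were at least 2-fold higher in members although Epcam and Upk3b were barred, and Krt19 was not, at 20.1 CPM against 31.5 CPM. Krt8 was at 166 CPM against 47.3 CPM, a ratio of 3.51 (3.17 to 3.89) that rose to 9.82 against reference cells that also lacked the barred genes and to 6.15 in the 11 cells with all 3 genes. Krt18 had a ratio of 2.28 (2.10 to 2.47). Wt1, a marker of coelomic epithelium, was 2.76-fold lower (2.23 to 3.47).

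Most of the 15 genes with the lowest ratios were globin and muscle genes. Myog, a muscle factor, had 1 UMI in members and was at 122 CPM in the reference cells, a ratio of 0.00237 (6.0e-05 to 0.0132). It was thus 422-fold lower, but 12.8-fold with a pseudocount of 10 CPM and 124-fold with cells thinned to 4000 UMIs. Hbb-bt, a beta-globin gene that shares reads with its near-copy Hbb-bs, had 0 UMIs in members and was at least 70.9-fold lower. Prrx1, a factor of limb and body wall mesenchyme, was at 2.01 CPM against 61.4 CPM, 30.5-fold lower (14.8 to 76.0). This rests on 7 UMIs in members, and the fold was between 5.95, with a pseudocount of 10 CPM, and 72.3, with cells thinned to 4000 UMIs. The 15 lowest genes also held the globin genes Hba-x, Hba-a1, Hba-a2, Hbb-bh1, Hbb-y and Hbb-bs, the erythroid enzyme gene Car2, the muscle genes Tnnc2, Acta1 and Actc1, the cell cycle inhibitor gene Cdkn1a and the endocrine gene Gcg. Over all genes, 5.73% were at least 2-fold lower and 2.59% higher. Of the marker lists of other cell types, all genes that passed the filter were at least 2-fold lower for sclerotome (6), dermomyotome and muscle (8), neural crest and neurons (8) and blood (8). Lower genes numbered 7 of 8 for endothelium, 6 of 7 for intermediate mesoderm and nephric duct, 4 of 5 for the gonad primordium and 4 of 7 for somatic lateral plate and limb, with none higher. Twist2, of the last list, was at 86.9 CPM in members and 48.0 CPM in the reference cells, within 2-fold. The exceptions on the higher side were keratins Krt8 and Krt18 in the lists of coelomic epithelium (3 of 8 higher with Bnc1, 2 lower) and endoderm (2 of 5 higher, 3 lower), Ifitm1 among germ cell genes (1 of 4 higher, 3 lower) and Nkx2-5 among cardiac genes (1 of 4 higher, 2 lower). No macrophage gene passed. The reference set holds the cells that these lists mark.

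Other genes with high ratios have varied roles. Saa1 and Saa2, acute-phase proteins, were at 90.1 CPM and 71.9 CPM in members and at 4.43 CPM and 3.53 CPM in the reference cells. Hsd11b2, the enzyme that inactivates glucocorticoids, had a ratio of 6.09 (5.48 to 6.77). Cavin2 was at 76.5 CPM against 8.41 CPM, and its log2 ratio fell to 0.47, within 2-fold, in the 11 cells with all 3 genes. Ifitm1, an interferon-induced membrane protein gene, had a ratio of 7.30 (6.48 to 8.22), the G-protein regulator Rgs10 one of 5.28 (4.41 to 6.30) and the junction gene Cgnl1 one of 5.30 (4.34 to 6.45). In the 11 cells just named, the ratio was 3.62 for Ifitm1 and 2.88 for Rgs10. With a pseudocount of 10 CPM it was 3.34 for Rgs10 and 3.13 for Cgnl1. Of 27 Hox genes, 8 were at least 2-fold higher in members and 6 lower, with a median log2 ratio of 0.44, where 2.59% of all genes were higher and 5.73% lower.

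The group was also set beside 3 other gates of the same library. Each was defined by 1 barred transcript (Pax1 for sclerotome, Pax3 for dermomyotome, Upk3b for coelomic epithelium), no other barred transcript and none of the 3 gate genes. The coelomic epithelium gate held 197 cells, the dermomyotome gate 287 and the sclerotome gate 231. Nkx2-3 stood furthest apart, with 0 UMIs in the sclerotome and coelomic gates and 0.756 CPM in the dermomyotome gate. Its level in members was therefore at least 96.7-fold higher than in the sclerotome gate and at least 81.0-fold higher than in the coelomic gate, with 3 UMIs over the gate as the floor. Mab21l2 reached 5.56 CPM in the coelomic gate, and members were 35.5-fold above it. Cavin2, a caveolar protein gene, was at 76.5 CPM in members and at 6.99 CPM in the sclerotome gate, the highest of the other gates. Isl1 was 6.00-fold above the dermomyotome gate, and Ifitm1 5.91-fold and Hlx 5.42-fold above the coelomic gate. Gpr50 (rank 2), Rgs10, Tmem158 and Ghr completed the 10 genes with the largest ratio to the highest other gate. Krt18 did not separate members from coelomic epithelium, where it was at 378 CPM, and Krt8 was at 66.8 CPM there. Tcf21 was at 43.9 CPM in the coelomic gate and 46.9 CPM in members, so it did not mark the group against that neighbour.

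**Figure D3:**
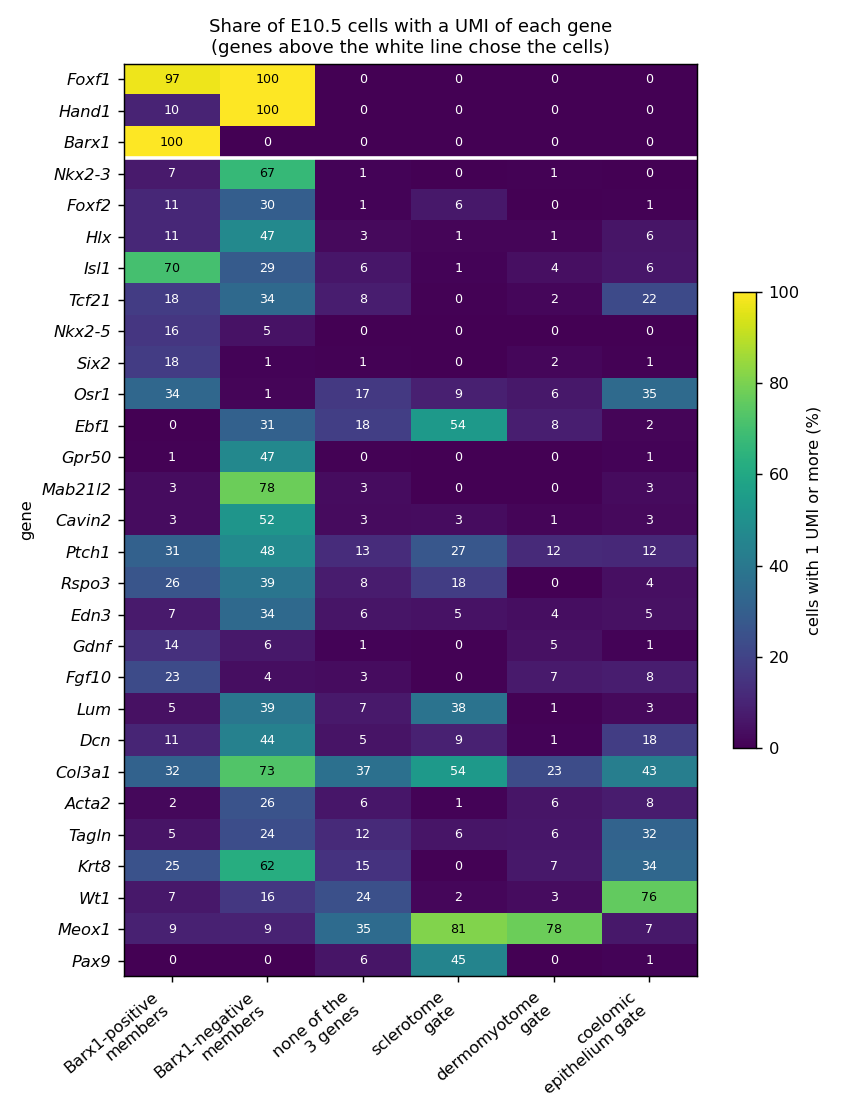
Share of cells with 1 UMI or more (colour and printed number, %) of 29 genes (rows) in the 2 parts of the group, in cells with none of the 3 genes and in 3 other gates of the E10.5 library (columns), where genes above the white line chose the cells. Nkx2-3, Mab21l2 and Gpr50 are found in 67.1%, 77.6% and 46.6% of Barx1-negative members and in few cells of any other column, and Isl1 in 70.4% of Barx1-positive members. Meox1 is found most often in the sclerotome (81.0%) and dermomyotome (77.7%) gates, and Pax9 mainly in the sclerotome gate (45.0%).

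Barx1-positive and Barx1-negative members differed in Hox genes, factors, signals and matrix. Of 5580 genes that averaged 20 CPM or more in members, 49 (0.878%) were at least 2-fold higher in Barx1-positive members and 205 (3.67%) at least 2-fold lower. The median log2 ratio was 0.02 over the 5579 genes that had one. Among the 10 transcription factor genes of visceral mesoderm that passed this filter, 2 were higher in Barx1-positive members (Isl1 and Osr1) and 3 lower (Nkx2-3, Foxf2 and Hand2). Osr1, a zinc-finger factor of foregut and intermediate mesoderm, was at 96.2 CPM (79.9 to 115) in Barx1-positive and 3.17 CPM (1.28 to 6.54) in Barx1-negative members, a ratio of 30.3 (14.3 to 77.0). Nkx2-3 was at 14.2 CPM in Barx1-positive and 205 CPM in Barx1-negative members and thus 14.4-fold lower (9.03 to 24.6). The Osr1 ratio was 8.06 with a pseudocount of 10 CPM, 15.1 with no upper limit on genes per cell and 86.6 with cells thinned to 4000 UMIs, and the Nkx2-3 fold lay between 8.88 and 35.7 over the alternatives run. Osr1 was found in 33.6% of Barx1-positive and 1.44% of Barx1-negative cells, and Nkx2-3 in 7.24% and 67.1%. Osr1 is named for the highest ratio between the parts among genes that passed the filter, and the values of both genes are a description.

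Other factors also differed between the parts. Isl1 was at 213 CPM in Barx1-positive and 67.1 CPM in Barx1-negative members, a ratio of 3.17 (2.59 to 3.90). A pair of factors of the developing pyloric sphincter averaged too little over the members for the filter. Nkx2-5 was at 38.6 CPM against 9.06 CPM, a ratio of 4.26 (2.49 to 7.57), and Six2 at 30.0 CPM against 1.36 CPM, a ratio of 22.0 (6.99 to 112). Six2 is near the floor in Barx1-negative members, where 3 cells had a UMI, and Nkx2-5 is low in both parts. The ratio fell to 2.55 for Nkx2-5 and 3.52 for Six2 with a pseudocount of 10 CPM. For Six2 it was 8.95 in cells without a UMI of Top2a, Mki67 or Cenpf and 44.4 with 2 UMIs required for each of 2 genes. Mycn, a growth-promoting factor, was at 134 CPM against 43.5 CPM. On the other side, Ebf1, a helix-loop-helix factor of mesenchyme and B cells, had 165 UMIs (74.8 CPM) in Barx1-negative members and 0 UMIs in Barx1-positive members, so it was at least 31.6-fold lower there. Gpr50 had 283 UMIs in Barx1-negative and 1 UMI in Barx1-positive members, a ratio of 0.00615 (0.000155 to 0.0345), or 0.0780 with a pseudocount of 10 CPM. Mab21l2 was 38.9-fold lower (21.0 to 81.5) in Barx1-positive members (17.7-fold to 154-fold over the alternatives run). Foxf1 itself was at 302 CPM in Barx1-positive and 350 CPM in Barx1-negative members. Since the rule requires Foxf1 of every Barx1-negative member, these levels are set in part by the rule.

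The promoters of the homeobox genes that stood on the 2 sides of this divide are shown because they mark where each transcript starts, from RefSeq (GRCm38.p6), as 250 bases before to 50 bases after the start, 5′ to 3′ on the gene's strand. Barx1 is at chr13:48662786-48663085 (plus strand) and Nkx2-3 at chr19:43612075-43612374 (plus strand). The 2 windows differ in base composition, with 84.7% G or C in the Barx1 window and 60% in the Nkx2-3 window.
Barx1: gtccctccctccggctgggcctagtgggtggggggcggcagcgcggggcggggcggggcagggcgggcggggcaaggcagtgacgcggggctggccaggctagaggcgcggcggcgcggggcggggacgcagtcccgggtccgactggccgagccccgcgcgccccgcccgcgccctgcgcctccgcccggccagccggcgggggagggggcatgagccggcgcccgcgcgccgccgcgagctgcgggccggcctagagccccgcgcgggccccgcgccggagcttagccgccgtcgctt
Nkx2-3: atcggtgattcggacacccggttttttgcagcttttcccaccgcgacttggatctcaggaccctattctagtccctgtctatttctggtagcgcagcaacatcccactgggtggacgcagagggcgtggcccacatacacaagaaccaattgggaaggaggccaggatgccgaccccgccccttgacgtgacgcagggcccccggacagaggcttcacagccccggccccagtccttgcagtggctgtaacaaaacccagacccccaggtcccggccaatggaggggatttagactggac

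Hox genes, whose paralogue groups are expressed in order along the body axis, differed between the parts largely by group number. Hoxb8 and Hoxc6 went against that order, Hoxb8 being higher and Hoxc6 lower in Barx1-positive members. Of 20 Hox genes that passed the filter, 8 were at least 2-fold higher in Barx1-positive members (Hoxa2, Hoxa4, Hoxa5, Hoxb1, Hoxb5, Hoxb6, Hoxb8 and Hoxc5) and 8 at least 2-fold lower (Hoxa7, Hoxa9, Hoxc6, Hoxc8, Hoxc9, Hoxc10, Hoxd9 and Hoxd10), where 0.878% of all genes were higher and 3.67% lower. In cells without a UMI of Top2a, Mki67 or Cenpf, Hoxb5 came within 2-fold, at a ratio of 1.12. Hoxa5 was at 219 CPM in Barx1-positive and 48.0 CPM in Barx1-negative members, a ratio of 4.56 (3.63 to 5.76), which was 2.31 in the cells just named. Hoxb1 was at 75.7 CPM against 6.80 CPM, a ratio of 11.1 (6.42 to 20.7), between 5.10 and 18.9 over the alternatives run. Hoxc10 was at 2.36 CPM in Barx1-positive members and 116 CPM in Barx1-negative members, 48.9-fold lower (16.5 to 239), but 3.52-fold lower in cells without a UMI of Top2a, Mki67 or Cenpf. Hoxc8 was 21.6-fold lower (10.3 to 54.3), between 8.32 and 60.7. Hoxd9 had 1 UMI in Barx1-positive members and 151 UMIs in Barx1-negative members. Groups 1 to 6 gave 84.9% of the 1515 Hox UMIs of Barx1-positive members and 40.5% of the 2493 of Barx1-negative members. Groups 9 to 13 gave 1.78% and 35.8%, and the latter was close to the 34.1% of cells with none of the 3 genes. Group 11 gave 19 UMIs in Barx1-negative and 0 UMIs in Barx1-positive members. Hoxb7 was at 38.6 CPM and 39.4 CPM and did not divide them. No UMI of groups 12 or 13 was found in members.

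**Figure D4:**
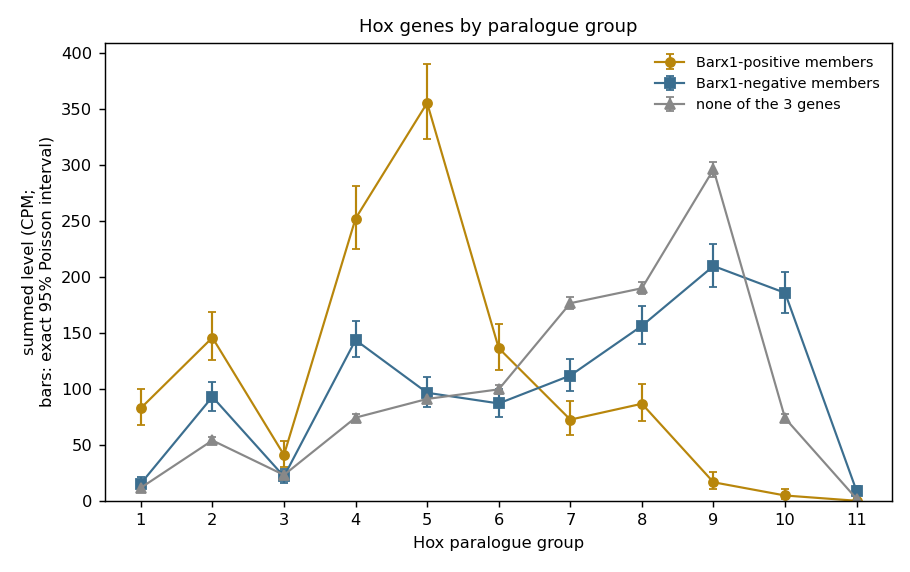
Summed level of the Hox genes of each paralogue group (horizontal axis, groups 1 to 11) in Barx1-positive members, Barx1-negative members and cells with none of the 3 genes, in CPM (vertical axis), with exact 95% Poisson intervals as bars. Barx1-positive members peak at group 5 (356 CPM) and are at 4.73 CPM at group 10, where Barx1-negative members reach 186 CPM.

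Signals also differed in which part carried them. Fgf10, a mesenchymal ligand that acts on foregut epithelium, was at 35.5 CPM in Barx1-positive and 4.98 CPM in Barx1-negative members, a ratio of 7.12 (3.62 to 15.3), or 3.03 with a pseudocount of 10 CPM. Etv4, a target of FGF signalling, had a ratio of 3.42 (2.13 to 5.59). Wnt4 was at 19.7 CPM against 3.17 CPM, and the enteric neuron signal Gdnf at 19.7 CPM against 8.16 CPM, a ratio of 2.42 (1.27 to 4.70). Fgf10, Wnt4 and Gdnf averaged under the 20 CPM filter over the members. Of the genes that passed, none of 6 Wnt pathway genes and none of 3 niche genes was higher in Barx1-positive members, and 2 of each were lower, where 0.878% of all genes were higher and 3.67% lower. With so few genes tested, none being higher is near the share over all genes. Edn3 was 5.94-fold lower (3.28 to 11.8) in Barx1-positive members, Wnt5a 6.13-fold lower (3.10 to 13.8) and Bmp4 3.84-fold lower (2.71 to 5.58). Bmp4 was the 1 of 7 BMP pathway genes that was lower, with 6 neither and a median log2 ratio of -0.16. Of 9 FGF and retinoic acid genes, 2 were higher (Etv4 and Crabp2), 2 lower (Crabp1 and Fgfr2) and 5 neither, with a median log2 ratio of -0.08. The enteric neuron signals Gdnf and Edn3 were thus highest in different parts. The chemokine gene Cxcl12 was at 100.2 CPM in Barx1-negative members and 3.85-fold lower (2.66 to 5.73) in Barx1-positive members. Ptch1 was at 51.2 CPM in Barx1-positive and 99.7 CPM in Barx1-negative members, 1.95-fold lower (1.47 to 2.61) and so just within 2-fold. Its log2 ratio was -1.06 with 500 to 5000 genes per cell and -1.04 with no upper limit, both past 2-fold, and the level was 1.13-fold lower in cells without a UMI of Top2a, Mki67 or Cenpf. Both levels were above the 17.9 CPM of the reference cells. The neurofilament gene Nefm had a ratio of 12.0 (6.35 to 25.1), or 4.67 with a pseudocount of 10 CPM. The retinoic acid binding genes split, with Crabp2 at a ratio of 3.31 (2.35 to 4.71; 2.12 with cells thinned to 4000 UMIs) and Crabp1 4.98-fold lower (3.64 to 6.97) in Barx1-positive members.

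Of 13 matrix genes that passed the filter, 8 were at least 2-fold lower in Barx1-positive members, none higher and 5 neither, with a median log2 ratio of -1.43, where 3.67% of all genes were lower. Col3a1 was at 54.4 CPM in Barx1-positive and 238 CPM in Barx1-negative members, 4.38-fold lower (3.40 to 5.72). Lum was at 11.8 CPM against 165 CPM, and Postn at 4.73 CPM against 102 CPM, 21.6-fold lower (9.75 to 59.4), between 7.60 and 52.1 over the alternatives run. Fn1, by contrast, was at 54.4 CPM and 45.3 CPM. Of 6 smooth muscle genes, 4 were at least 2-fold lower and 2 neither, with a median log2 ratio of -2.17. Acta2 was at 4.73 CPM in Barx1-positive and 140 CPM in Barx1-negative members, 29.6-fold lower (13.4 to 81.3) and between 10.2 and 85.6 over the alternatives run, and it was found in 1.97% and 25.6% of cells. Tagln was 15.0-fold lower (8.03 to 31.7) and Myl9 8.92-fold lower (5.74 to 14.6). With a pseudocount of 10 CPM the folds were 7.17 for Tagln and 5.94 for Myl9. In cells without a UMI of Top2a, Mki67 or Cenpf, Tagln was 27.8-fold lower. Srf, the factor that drives these genes, was at 14.2 CPM and 17.7 CPM, and Myocd, its cofactor, had 3 UMIs in all members. Acta2 was thus detected in a minority of the Barx1-negative cells. All 4 coelomic epithelium genes that passed the filter (Krt8, Krt18, Krt19 and Wt1) were also at least 2-fold lower in Barx1-positive members, and the list summed to 207 CPM there and 624 CPM in Barx1-negative members. The part of such cells in the difference between the parts was not tested.

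The CArG box, the site that SRF binds, was searched in the promoters of these genes on both strands. Its pattern was CC, then 6 bases that are A or T, then GG, with overlapping matches allowed. It occurred in 1.63% of 32851 promoter windows. Among the 10 smooth muscle genes with a window in the table, Myl9 and Srf held it; Tagln, Actg2, Myh11 and Myocd were not analysed here. The GLI motif GACCACCCA (0.253% of all windows) was in none of 9 Hedgehog pathway windows, and the forkhead motif TGTTTAC (3.65%) in none of 16 windows of visceral mesoderm factors, on either strand. The Myl9 window (chr2:156775214-156775513, plus strand, GRCm38.p6, RefSeq) is shown because its gene is among those that divided the parts, with the CArG box in capitals, 161 bases before the start. A match is a description of the sequence and not a measured site.
Myl9: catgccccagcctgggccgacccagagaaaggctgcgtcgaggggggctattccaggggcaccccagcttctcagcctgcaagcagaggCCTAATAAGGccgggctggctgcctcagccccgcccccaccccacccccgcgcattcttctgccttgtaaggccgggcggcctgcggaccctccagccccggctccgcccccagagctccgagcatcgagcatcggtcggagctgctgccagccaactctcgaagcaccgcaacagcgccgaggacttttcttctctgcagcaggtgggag

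**Figure D5:**
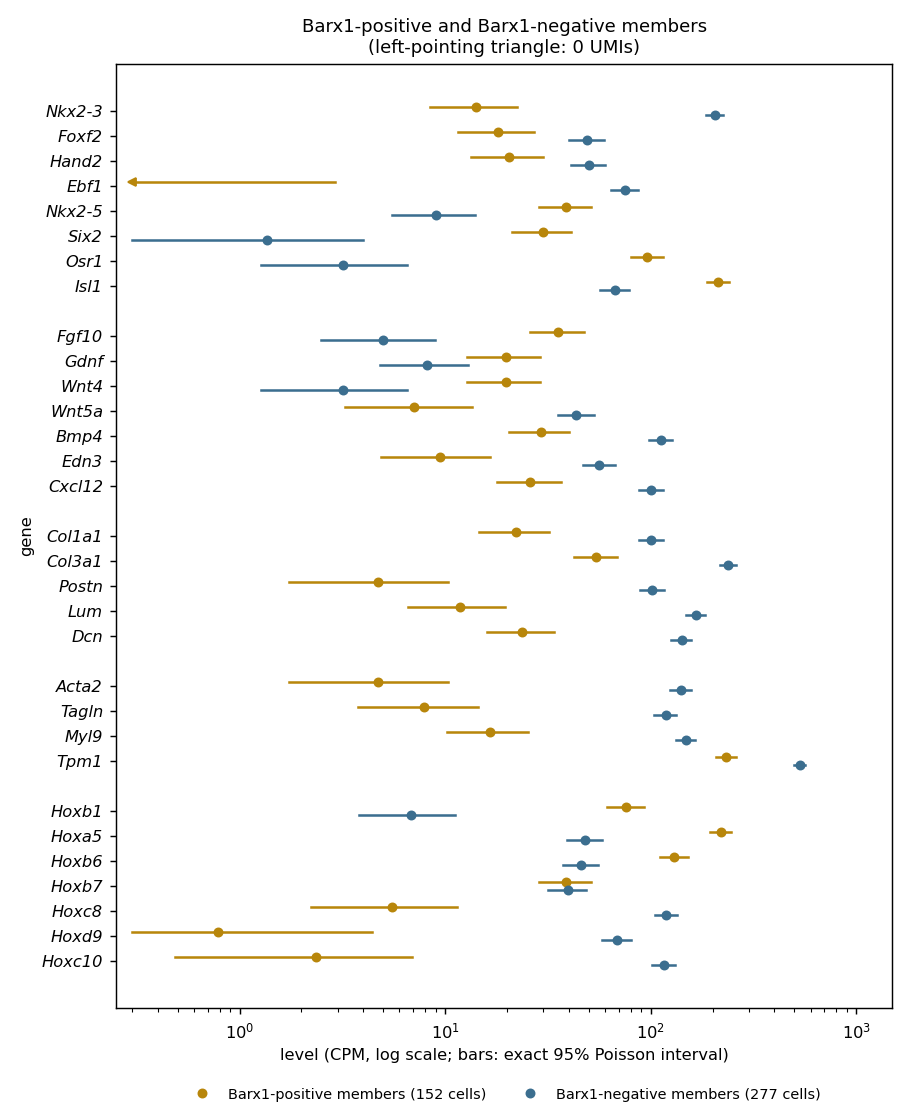
Levels of named factors, signals, matrix, contractile and Hox genes (rows, in that order) in Barx1-positive (152 cells) and Barx1-negative members (277 cells), in CPM on a log scale, with exact 95% Poisson intervals as bars (3 long bars are cut off at the left edge) and a triangle for 0 UMIs. Osr1, Six2, Fgf10 and Hoxb1 lie to the right in Barx1-positive members, Nkx2-3, Postn, Acta2 and Hoxc10 in Barx1-negative members, and Hoxb7 overlaps.

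The 15 Barx1-positive members that also carried Hand1 were mixed for these genes. Among them, 13 had a UMI of Isl1, 4 of Hoxa5, 2 of Osr1 and 2 of Nkx2-3, whereas among the 137 without Hand1, 94 had Isl1, 103 Hoxa5, 49 Osr1 and 9 Nkx2-3. Hoxb1 was found in 56 of the 137 and in none of the 15. Nkx2-5 was found in 18 of the 137 and in 6 of the 15. Clustering of the members alone, again without the 7 genes of the rule, gave 5 subclusters. The first held 127 cells, 125 of them Barx1-positive, and was led by Osr1, Hoxa5, Mycn and others. The second, with 118 cells and 1 Barx1-positive cell, was led by Hoxc10, Ebf1, Hoxd9 and Hoxc8. The third, with 95 cells and 14 Barx1-positive cells, was led by Asb4, Shisa3, Itm2a, Tgfb2 and Krt8. The Barx1-negative members were thus spread over several subclusters. The levels below come from the same cells and clustering. They describe the subclusters and are no test of whether that part was uniform. Acta2 was at 175 CPM in the third subcluster and 72.8 CPM in the second, while Hoxc10 was at 33.3 CPM and 188 CPM. Isl1 was at 160 CPM in the third subcluster and 203 CPM in the first, and Nkx2-5 at 45.3 CPM and 30.4 CPM. These 2 factors were thus not low in all of the mostly Barx1-negative subclusters. In the fourth (74 cells, none Barx1-positive), Saa1 was at 241 CPM, Acta2 at 224 CPM and Lum at 252 CPM, and the median depth was 6104.5 UMIs. Top2a was at 56.4 CPM there and at 531 CPM in the second, so this cell cycle gene moved with the subcluster, and its part in the grouping was not tested. Saa1 and Saa2 are near-identical, and their reads could be split between them. The fifth held 15 cells at a median of 3775 UMIs.

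No member was found outside E10.5. The 2101 E11.5, 2764 E12.5 and 2285 D6 cells held 0 that met the rule, which allows shares of up to 0.143%, 0.109% and 0.131%, at median depths of 11926, 10946 and 4607 UMIs. With every cell thinned to 4000 UMIs, 296 of 3454 E10.5 cells (8.57%) met the rule and none in the other libraries. Foxf1 was found in 3, 10 and 9 cells of the E11.5, E12.5 and D6 libraries and Hand1 in 1, 6 and 0 cells, never with more than 1 UMI. Barx1 was found in 34 cells at E11.5 and 59 at E12.5, with at most 2 UMIs in a cell, and 28 and 36 of these also had a UMI of Nr5a1, which 34.7% and 31.9% of all cells of these libraries had. Nkx2-3 had 2 UMIs in each of the E11.5 and E12.5 libraries and 0 at D6. Stage and dissection differ together between E10.5 and the later gonads, and D6 also differs in origin, strain and kit, so their parts in this absence cannot be told apart. No barcode of a member recurred in another library.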

How the data were processed

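Counts were used as the authors deposited them: 1 gene-by-barcode matrix of whole UMI counts for each library. Per the submitters' processing notes, reads were mapped to mm10 with Cell Ranger 3.0.2, whereas the matrix headers name Cell Ranger 6.0.0. Gene positions are from GENCODE M21. The E10.5 limits on genes and mitochondrial share followed the study's methods, which give limits for each library. UMIs were summed over the cells of a set and scaled to 1000000 (CPM). E10.5 held 40199985 UMIs in 4473 barcodes, and 32508523 in the 3837 retained cells, of which the 429 members held 3475276.

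Cells of 1 library are not replicates, so no test was run. Levels carry exact Poisson, ratios exact conditional binomial and shares exact Clopper-Pearson intervals (95%). Genes entered a comparison at 3 CPM over all retained cells, or 20 CPM over members. A gene counted as higher or lower at 2-fold. The genes named were the 7 of the rule, the genes of 25 lists, the 15 with the largest ratio in each direction against cells with none (50 CPM or more in the higher set, no mitochondrial gene), 10 in each direction between the Barx1 parts, and 10 against the other gates. The members and lists were chosen with earlier results of these data known. The 7 genes of the rule were left out of both comparisons and the clustering (scanpy 1.11.5, Leiden, 2000 variable genes, resolution 0.5).

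Doublets were kept. Scrublet's own threshold marked 2 cells, so for an alternative the 132 cells with the highest scores, near the expected rate of 3.07%, were removed (9 of them members). Other alternatives changed the cell filter, the rule, the reference cells, scaling (TMM, edgeR 4.0.16), the expression filter and the pseudocount. The ratio step was checked on simulated counts. RefSeq promoter windows matched 10 smooth muscle, 9 Hedgehog and 16 visceral mesoderm factor genes of the lists. Analyses ran in Python 3.11.15. A few genes that these rules would name are not reported here.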

Additional observations from a re-analysis of the deposited data

Results flagged for a closer look

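A signal of the group appeared in barcodes that the comparisons did not use. Of 352 E10.5 barcodes with 4000 or more genes and under 10% mitochondrial UMIs, 23 met the rule on the 7 genes, a share of 6.53% (exact binomial 95% interval 4.19 to 9.64%). Their median depth was 16957 UMIs, and 10 of them carried Barx1. Droplets with 2 cells are among the barcodes of high gene number, and their part was not tested.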

How the results depend on the processing

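The number of members fell from 429 to 240 when each of 2 genes needed 2 UMIs and to 11 when all 3 genes were required, and was between 296 and 514 under the other gate rules and cell filters, apart from the cell cycle restriction given next. Counts of genes past 2-fold also moved. In members against cells with none of the 3 genes (272 higher, 602 lower), they were 1384 and 3230 with all 3 genes required, 130 and 225 with the filter at 10 CPM, 1216 and 1150 with no filter, 112 and 151 with a pseudocount of 10 CPM, and 497 and 1237 in the cells without Top2a, Mki67 or Cenpf, of which 100 were members. Between Barx1-positive and Barx1-negative members (49 higher, 205 lower), they were 137 and 324 with cells thinned to 4000 UMIs, 12 and 75 with the filter at 50 CPM, 701 and 1180 with no filter, 272 and 670 in the cells without Top2a, Mki67 or Cenpf, and 29 higher with a pseudocount of 10 CPM. The cause of these moves was not tested. TMM scaling moved all log2 ratios by -0.05 and -0.02. Of 36 genes followed in the first comparison, 17 had a ratio in the 11 cells with all 3 genes. Of these, Rspo3 (log2 ratio -0.14) changed direction there. None of 25 genes followed between the Barx1 parts changed direction in the alternatives run, among them 1 chosen after the data were seen that left out Barx1-positive members with Hand1 (58 higher, 222 lower). Of 792 ratios of named genes under these alternatives, 152 moved by over 1.5 times, of which 47 of 61 with the pseudocount, 26 of 51 in the cells without Top2a, Mki67 or Cenpf and 21 of 57 with cells thinned to 4000 UMIs. Within 2-fold came Isl1 (log2 ratio 0.79), Hhip (0.33) and, between the Barx1 parts, Hoxb5 (0.16) in the cells without Top2a, Mki67 or Cenpf, Gli1 (0.65), Hhip (0.82) and Six2 (0.97) with the pseudocount, and Cavin2 (0.47) and Rspo3 in the 11 cells. Past 2-fold came Ptch1 between the Barx1 parts, with log2 ratios of -1.06 with 500 to 5000 genes per cell, -1.04 with no upper limit on genes and -1.03 without the Barx1-positive members with Hand1. Between the Barx1 parts, Hoxc10 was 3.52-fold lower in the cells without those 3 genes and Acta2 85.6-fold lower with doublets removed. The gate found 0 cells in the other 3 libraries under all 6 alternatives run there. No paired analysis was possible because each condition has 1 library. A gene with few UMIs cannot be told from 0 at this depth.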

Other observations

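Cells with exactly 1 of the 3 genes were intermediate for several genes of the group. In these 452 cells Nkx2-3 was at 42.8 CPM, Ptch1 at 32.5 CPM, Foxf2 at 13.5 CPM and Isl1 at 85.8 CPM, each between the cells with none of the 3 genes and the members. Some genes were higher in them than in members, with Acta2 at 186 CPM against 90.6 CPM, Wnt2 at 86.9 CPM against 5.47 CPM, Msx1 at 95.4 CPM against 15.3 CPM and Irx3 at 41.9 CPM against 1.44 CPM. Of these cells, 106 lay in cluster 1, which was led by Wnt2, Pitx1 and Irx3 and held 5 members.

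Genes that led the group were not all absent from the later libraries. Ifitm1 was at 164 CPM in members, 733 CPM at E11.5, 492 CPM at E12.5 and 196 CPM at D6. Gpr50 and Mab21l2 together had 1 UMI at E11.5 and 3 UMIs at E12.5, and Mab21l2 had 21 UMIs at D6. Hlx was at 31.6 CPM at D6 against 63.3 CPM in members. The later gonads differ from E10.5 in stage and dissection, and D6 also in strain and kit, and these levels were not compared by a test.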
